A study of Danio rerio with 14 samples.

Results

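The set described here holds 8 genes of the cone phototransduction cascade, measured in whole zebrafish larvae: gnat2, gngt2a, gngt2b, pde6c, grk7a, arr3a, arr3b and cnga3a. They were chosen by gene symbol, and each symbol matched 1 row, so that 8 of the 36351 genes in the tables are covered. All 8 lay above the limit for testing, a mean normalized count of 10 over the libraries compared, in each comparison. A normalized count is the number of reads of a gene divided by 1 size factor per library.

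Cones are the photoreceptors of daylight and colour vision. Light turns a cone opsin on, the opsin activates the G protein transducin, and transducin releases the brake on a phosphodiesterase that breaks down cyclic GMP. Cation channels held open by cyclic GMP then close and the cell hyperpolarizes. A kinase and an arrestin shut the opsin off again, so the cone can respond to the next change in light. Larval zebrafish see mainly with cones at this age, because their rods mature later. In humans, loss of GNAT2, PDE6C or CNGA3 causes achromatopsia, the absence of cone vision.

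The larvae were AB wild-type animals of 96 hours post fertilization (hpf), exposed from 3 hpf with daily renewal. One group received M510F01, a metabolite of boscalid, at 0.03 µg/L. A second received the parent compound boscalid, a fungicide that inhibits succinate dehydrogenase, also at 0.03 µg/L. The control group received the solvent dimethyl sulfoxide (DMSO) at 0.01% by volume, and the labels give no solvent share for the exposed groups. The tables hold 4 libraries per group, 12 in all, made from total RNA of whole larvae after removal of ribosomal RNA. Per the labels nothing is known of the number of larvae behind a library, or of its clutch or tank, and a p-value therefore reflects only how far these samples scatter, which may be technical. The sample titles give the M510F01 libraries as Boscalite, and the treatment labels as M510F01.

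Between 12893093 and 17060350 reads per library were assigned to genes. The labelled source was checked with 23 markers of larval tissues, among them muscle, liver, pancreas, skin, blood and brain, and all 23 were above the limit for testing. The 34 matched genes of the list of other cone phototransduction genes were all above it too. No gene length was at hand, so levels are not adjusted for it. Groups are compared for 1 gene, for a ratio within a library or for the sum of a list. Where levels of different genes stand side by side, they compare reads and not amounts of transcript. Levels below are normalized counts on 1 scale for all 12 libraries, set by rescaling them together. Fold changes against DMSO come from each compound's own deposited table, because the authors normalized the tables separately.

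No cone gene passed the test in any of the 3 comparisons. In boscalid larvae all 8 had a higher mean than in DMSO larvae, with log2 fold changes from 0.15 for cnga3a to 0.44 for arr3a. The spread between libraries of one group was about as large as these differences, and the groups overlapped for every member. In RNA of whole larvae a change in the number of cones and a change in the RNA per cone cannot be told apart.

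Transducin is the first amplifier of the cascade. Gnat2 (LL0000011454) encodes its cone alpha subunit, which zebrafish cones need for their normal response to light. Gnat2 had 3552, 2757, 3597 and 4366 normalized counts in M510F01 replicates 1 to 4, 3851, 3861, 4968 and 4195 in boscalid replicates 1 to 4, and 3228, 2985, 4212 and 2317 in DMSO replicates 1 to 4. All 4 boscalid libraries were above 3 of the 4 DMSO libraries, and DMSO replicate 3 lay within the boscalid range. The log2 fold change was 0.43 with boscalid against DMSO (SE 0.18, 95% interval 0.042 to 0.82, unadjusted p = 0.033, limma adjusted p = 0.65). It was 0.18 with M510F01 against DMSO (SE 0.18, interval -0.23 to 0.58, adjusted p = 0.9998).

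Gngt2a and gngt2b encode a pair of gamma subunits of cone transducin, which anchor the G protein to the membrane. Gngt2b (LL0000011480) had 3006, 2286, 3601 and 3485 normalized counts with M510F01, 2599, 3214, 4242 and 3868 with boscalid, and 2503, 2348, 3817 and 2173 with DMSO. It was the member with the largest spread, and DMSO replicate 3 exceeded both boscalid replicates 1 and 2. The log2 fold change was 0.37 with boscalid against DMSO (SE 0.20, interval -0.075 to 0.82, limma adjusted p = 0.66) and 0.21 with M510F01 against DMSO (SE 0.19, interval -0.21 to 0.63, adjusted p = 0.9998). Gngt2a (LL0000011479) had 413, 331, 413 and 374 normalized counts with M510F01, 374, 464, 474 and 466 with boscalid, and 379, 384, 434 and 348 with DMSO. In boscalid larvae 3 of the 4 libraries stood above all DMSO libraries, and boscalid replicate 1 fell among them. The log2 fold change of gngt2a was 0.20 with boscalid (SE 0.11, interval -0.053 to 0.45, adjusted p = 0.66) and -0.013 with M510F01 (SE 0.11, interval -0.25 to 0.23, adjusted p = 0.9998).

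Pde6c (LL0000021506) encodes the catalytic subunit of the cone phosphodiesterase, and zebrafish mutants without it lose their cones. It had 3863, 3277, 4197 and 4698 normalized counts with M510F01, 4186, 3903, 5328 and 4786 with boscalid, and 3727, 3409, 4788 and 3172 with DMSO. Boscalid replicates 1, 2 and 4 lay below DMSO replicate 3 and above the other DMSO libraries. The log2 fold change of pde6c was 0.28 with boscalid against DMSO (SE 0.16, interval -0.066 to 0.62, limma adjusted p = 0.66) and 0.093 with M510F01 against DMSO (SE 0.15, interval -0.24 to 0.43, adjusted p = 0.9998).

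Cnga3a (LL0000005882) encodes an alpha subunit of the cyclic GMP-gated channel, the last step of the cascade. It had 342, 277, 399.8 and 381 normalized counts with M510F01, 415, 316, 419 and 415 with boscalid, and 339.6, 339 and 433 in DMSO replicates 1 to 3, with 304 in DMSO replicate 4. No boscalid library exceeded DMSO replicate 3, and boscalid replicate 2 lay below DMSO replicates 1 and 2. Its estimates were the smallest among the members with boscalid, with a log2 fold change of 0.15 (SE 0.14, 95% interval -0.16 to 0.46, adjusted p = 0.73 by limma), and near 0 with M510F01, at -0.017 (SE 0.14, interval -0.33 to 0.30, adjusted p = 0.9998). With boscalid cnga3a was at 0.078 without DMSO replicate 4, and at 0.25 without DMSO replicate 3 or without boscalid replicate 2.

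The remaining members switch the cascade off. Grk7a (LL0000011757) encodes the cone opsin kinase, whose loss slows the recovery of zebrafish cones after light. Grk7a had 1485, 1050.2, 1263 and 1531 normalized counts with M510F01, 1409, 1349, 1695 and 1556 with boscalid, and 1240.2, 1179, 1530.2 and 808 with DMSO. DMSO replicates 3 and 4 were the extremes of their group, and all 4 boscalid libraries lay above the DMSO mean. The log2 fold change was 0.37 with boscalid against DMSO (SE 0.18, interval -0.022 to 0.76, limma adjusted p = 0.65) and 0.18 with M510F01 against DMSO (SE 0.18, interval -0.22 to 0.59, adjusted p = 0.9998). Without DMSO replicate 4 grk7a stood at 0.19 with boscalid and at 0.012 with M510F01.

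Arr3a and arr3b encode the cone arrestins, which cap the phosphorylated opsin. In zebrafish, arr3a is known from the long- and medium-wavelength cones and arr3b from the short-wavelength and ultraviolet cones. Arr3a (LL0000001410) had 5912, 5211, 5519 and 7206 normalized counts with M510F01, 5868, 6529.9, 8560.4 and 7185 with boscalid, and 5186, 4569.9, 7218 and 4102 with DMSO. As for gnat2, 3 of the 4 boscalid libraries lay below DMSO replicate 3 and all 4 lay above the other DMSO libraries. Arr3a had the largest estimate with boscalid, a log2 fold change of 0.44 (SE 0.19, interval 0.024 to 0.85, unadjusted p = 0.040, limma adjusted p = 0.65), and stood at 0.20 with M510F01 (SE 0.17, interval -0.18 to 0.58, adjusted p = 0.9998).

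Arr3b (LL0000001411) had 1044, 886, 1095 and 1322 normalized counts with M510F01, 1039, 1054, 1402 and 1363 with boscalid, and 902, 886, 1299.9 and 884 with DMSO. DMSO replicates 1, 2 and 4 lay within a few percent of each other, and replicate 3 stood far above them. The log2 fold change of arr3b was 0.30 with boscalid (SE 0.16, interval -0.053 to 0.65, limma adjusted p = 0.65) and 0.14 with M510F01 (SE 0.15, interval -0.20 to 0.47, adjusted p = 0.9998). The log2 ratio of arr3a to arr3b within a library was 2.53 ± 0.11 in boscalid larvae and 2.39 ± 0.14 in DMSO larvae (SD, n = 4 each), a difference of 0.14 (exact permutation test, two-sided p = 0.14, and 0.22 adjusted over the 11 ratios computed).

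**Figure D1:**
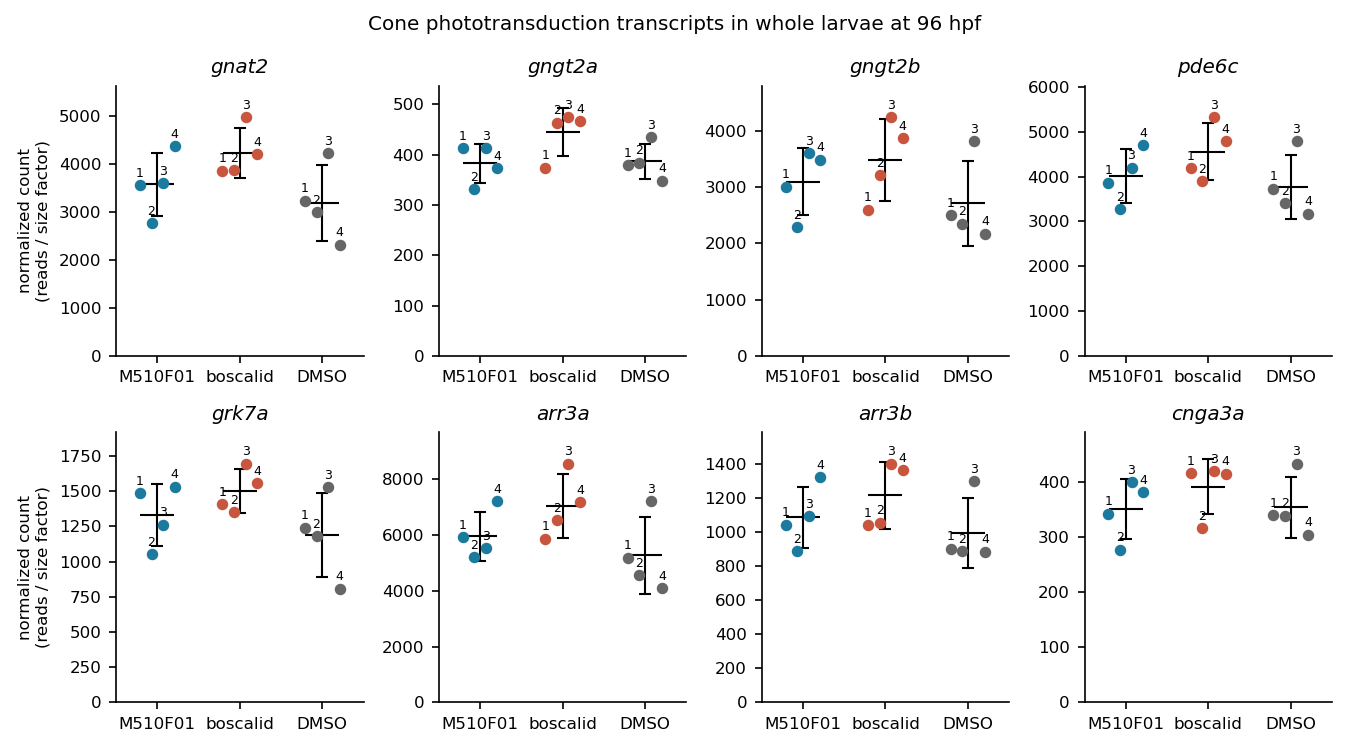
Normalized counts (y axes, from 0) of the 8 cone phototransduction genes in each library, with M510F01, boscalid and DMSO from left to right. Points are libraries with their replicate number, and the bar and whiskers give the mean and SD of 4 libraries. The groups overlap in each panel, and DMSO replicate 3 is the highest DMSO library for all 8 genes.

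The first comparison asked whether cone transcripts differ between boscalid and DMSO larvae. Of the 8 members, 0 passed an adjusted p of 0.05, and over all 23085 genes tested 0.0173% did. Adjusted p-values of the members lay between 0.65 and 0.73 (limma), and 2 members, gnat2 and arr3a, had an unadjusted p under 0.05 and were higher, as were 3.74% of all genes tested, while 3.94% were lower at that p. An unadjusted p under 0.05 was reached by 6 members with the replicate number as a block, and by 4 with a term that separates numbers 1 and 2 from 3 and 4, where 4616 and 3389 of the 23085 genes had one in either direction. EdgeR and DESeq2 on reads recovered from the tables also called 0 members, against 0.0173% and 0.415% of all genes tested. So did the fit with the block (0.39% of all genes) and the fit with the term (0.0823%). All 8 members had a positive log2 fold change, as had 50% of all genes. The median of the members was 0.33 and the median of all genes tested was -4.4e-05, and 5.93% of all genes had an estimate above the members' median. For 5 members (gnat2, pde6c, grk7a, arr3a and arr3b) all 4 boscalid libraries lay above the DMSO mean, which held for 14.2% of all genes. For 0 members did the groups stand apart without overlap, whereas 2.2% of all genes were higher and 2.07% lower without overlap. In exact permutation tests of 4 libraries against 4, whose smallest possible two-sided p is 0.029, the lowest p of a member was 0.086, for grk7a.

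In the authors' deposited table the log2 fold changes with boscalid were 0.42 for arr3a, 0.41 for gnat2, 0.36 for gngt2b, 0.34 for grk7a, 0.29 for arr3b, 0.27 for pde6c, 0.20 for gngt2a and 0.14 for cnga3a. The smallest adjusted p of a member in the authors' deposited table was 0.64, for gnat2. Of the 26099 genes with an adjusted p there, 87 were under 0.05. In the authors' table for M510F01 every member had an adjusted p of 0.9989, and 0 of 33133 genes were under 0.05.

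The second comparison set M510F01 larvae against the same DMSO libraries. Of the 8 members, 0 passed, as did 0% of the 23193 genes tested (limma). At an unadjusted p under 0.05, 0 members passed, against 1.51% of all genes that were higher and 2.1% that were lower. EdgeR, DESeq2 and the term for replicate numbers called 0 genes, and the replicate block called 0 members and 0.00431% of all genes. Among the members 6 estimates were positive and 2 negative, as were 51.3% and 48.7% of all genes. The members' median log2 fold change was 0.16, against 0.0044 for all genes tested. The largest estimate was 0.21 for gngt2b and the lowest -0.017 for cnga3a. Estimates moved by over 1.5 times or changed sign for all 8 members without DMSO replicate 3 and for all 8 without DMSO replicate 4, and for 7 each without M510F01 replicate 2 and without M510F01 replicate 4. The median rested on single libraries too: it was 0.30 without DMSO replicate 3, 0.026 without DMSO replicate 4, 0.25 without M510F01 replicate 2 and 0.055 without M510F01 replicate 4. For 0 members did all 4 M510F01 libraries exceed the DMSO mean, which held for 11.3% of all genes. M510F01 replicate 2 lay below the arithmetic DMSO mean for each of the 8. The groups of 0 members stood apart without overlap, against 1.12% of all genes higher and 1.06% lower.

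The third comparison set the metabolite against the parent compound at the same concentration and age, in 1 pair of compounds. All 8 members had a lower mean in M510F01 than in boscalid larvae, as had 49.3% of all 23131 genes tested, while 50.7% had a higher one. The test was passed by 0 members, against 0.013% of all genes with limma. It was also passed by 0 members with edgeR (0.00865% of all genes), DESeq2 (0.0865%), the replicate block (0.0346%) and the term for replicate numbers (0.0216%). At an unadjusted p under 0.05, 0 members were lower, against 2.4% of all genes, and for 0 members did the groups not overlap, against 1.06% of all genes higher and 1.39% lower. The log2 fold changes ran from -0.25 for gnat2 (SE 0.18, 95% interval -0.63 to 0.13, limma adjusted p = 0.84) to -0.16 for arr3b (SE 0.16, interval -0.50 to 0.18, adjusted p = 0.84). Arr3a was at -0.24 (interval -0.61 to 0.14), pde6c at -0.18 (interval -0.51 to 0.14), grk7a at -0.18 (interval -0.56 to 0.19), gngt2b at -0.17 (interval -0.60 to 0.27) and cnga3a at -0.16 (interval -0.47 to 0.15). The nearest to the threshold was gngt2a, at -0.21 (SE 0.11, interval -0.45 to 0.024, unadjusted p = 0.075, adjusted p = 0.84), and all 4 M510F01 libraries of gngt2a lay below the boscalid mean. These intervals hold values on both sides of 0, so the data do not show that the compounds act alike on these genes. The median of the members was -0.18, and it was -0.083 without M510F01 replicate 2 and -0.13 without boscalid replicate 3. Estimates of 6 members moved by over 1.5 times without M510F01 replicate 2 (to between -0.13 and -0.029), and those of 4 without boscalid replicate 3 (to between -0.14 and -0.064). With boscalid highest, M510F01 next and DMSO lowest in mean for 6 members, no neighbours in that order differed by the test. Gngt2a and cnga3a had nearly equal means with M510F01 and DMSO, at 383 ± 39.0 and 386 ± 35.6 normalized counts for gngt2a and at 349.9 ± 54.3 and 354 ± 55.3 for cnga3a (SD, n = 4 each).

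**Figure D2:**
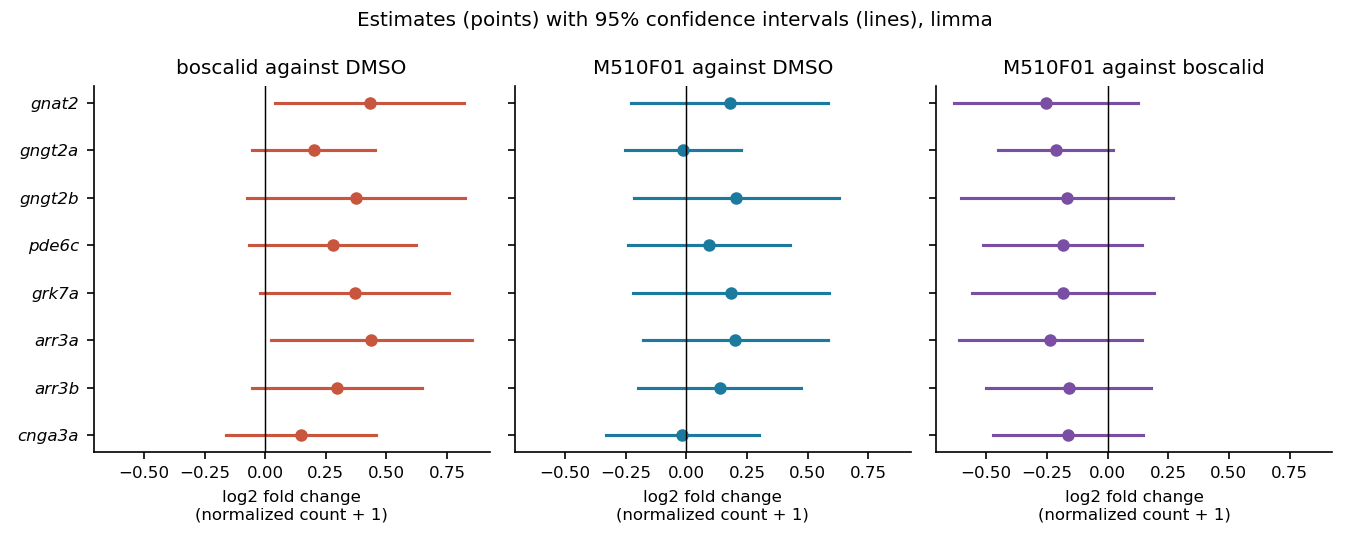
Log2 fold change (x axes, on normalized count plus 1) of each gene with its 95% confidence interval from limma, in 3 panels for boscalid against DMSO, M510F01 against DMSO and M510F01 against boscalid. The 8 points with boscalid lie right of 0, between 0.15 and 0.44, and the intervals of gnat2 and arr3a alone exclude 0 before adjustment over all genes.

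The members moved together from library to library. Boscalid replicate 3 was the highest boscalid library, and DMSO replicate 3 the highest DMSO library, for all 8 genes. DMSO replicate 4 was the lowest DMSO library for all 8, and M510F01 replicate 2 the lowest M510F01 library for all 8. The mean log2 level of the members, relative to the DMSO mean, was -0.17 in M510F01 replicate 2 and 0.14, 0.19 and 0.33 in M510F01 replicates 1, 3 and 4. It was 0.15, 0.18, 0.53 and 0.40 in boscalid replicates 1 to 4, and -0.013, -0.088, 0.39 and -0.29 in DMSO replicates 1 to 4. DMSO replicates 3 and 4 therefore differed more from each other than the boscalid and DMSO means did.

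Counting error was below this spread for each member, and came closest to it for gngt2a. The members held from 273 to 9906 reads in a library. At the mean reads of a group, counting alone gives a coefficient of variation between 1.17% and 5.37%. Between libraries of one group the coefficient of variation ran from 9.21% for gngt2a with DMSO to 27.7% for gngt2b with DMSO. Counting alone gives 5.14% for gngt2a with DMSO, so it was not small beside the spread for that gene.

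Over the 12 libraries, which share their normalization and the 3 groups, Pearson's r between 2 members had a median of 0.85 over the 28 pairs, from 0.58 for gngt2a with cnga3a to 0.96 for pde6c with arr3b. With each library taken as its deviation from its group mean, the median r was also 0.85, so the members followed each other about as closely within groups as over all 12 libraries. Pde6c followed the mean of the other 7 most closely (r = 0.98), and gngt2a (r = 0.76) and cnga3a (r = 0.79) least. Gngt2a and cnga3a had the fewest reads of the members. One component held 85.7% of the members' variance over the 12 libraries.

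**Figure D3:**
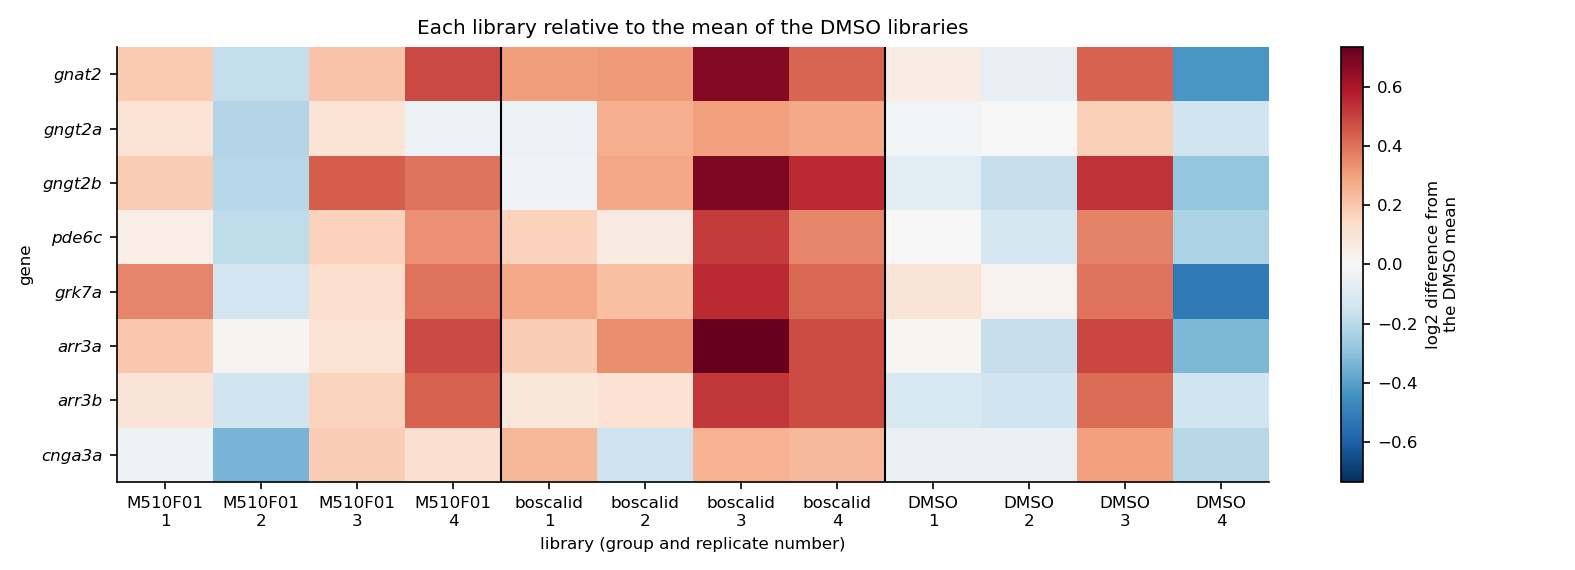
Log2 difference of each library from the mean of the 4 DMSO libraries, for the 8 genes (rows) in M510F01, boscalid and DMSO libraries (columns, from left to right). Whole columns share a colour: boscalid replicate 3 and DMSO replicate 3 are high for all 8 genes, and DMSO replicate 4 is low for all 8.

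Across all genes, the libraries numbered 1 and 2 lay on one side and those numbered 3 and 4 on the other of the first component of the variation within groups, which held 37.9% of it. The cone members' joint deviation had r = 0.56 with this component over the 12 libraries, from 0.23 for grk7a to 0.76 for arr3b. Its part in the result was not tested. Within numbers 1 and 2 the members' median log2 difference of boscalid from DMSO was 0.21, and within numbers 3 and 4 it was 0.43, with 8 positive members in both. For M510F01 against DMSO the corresponding medians were 0.029, with 5 positive members, and 0.20, with 8. For M510F01 against boscalid they were -0.16 and -0.20, with 0 positive members in both.

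More of the cone cascade was read from a list of 40 further entries, of which 34 matched a gene and were tested. Among these slc24a1 is also on the rod list below, so it enters both tallies. In whole larvae the reads of listed genes need not come from cones. With boscalid 29 of the 34 had positive and 5 negative estimates (median 0.24) and 0 passed in either direction. The 5 negative ones were cngb3.2 (-0.27, SE 0.32), slc24a2 (-0.19, SE 0.34), cngb3.1 (-0.075, SE 0.41), prph2l (-0.047, SE 0.16) and grk7b (-0.023, SE 0.19). The genes named next are those with the smallest p. Pdca, a phosducin that binds transducin beta-gamma, had 205 ± 40.3 normalized counts with M510F01, 285 ± 25.6 with boscalid and 188 ± 35.8 in DMSO larvae (SD, n = 4 each). Its log2 fold change with boscalid was 0.62 (SE 0.15, limma adjusted p = 0.43), larger than that of any of the 8 members, and with M510F01 it was 0.13 (SE 0.17). Its paralogue pdcb was at 0.44 (SE 0.15, adjusted p = 0.63), the disc-rim protein gene rom1b at 0.40 (SE 0.16, adjusted p = 0.65) and aipl1, a chaperone of phosphodiesterase, at 0.40 (SE 0.16, adjusted p = 0.65). With M510F01 against DMSO 29 of the 34 were positive and 5 negative (median 0.12), and against boscalid 8 were positive and 26 negative (median -0.087), with 0 past the test in both.

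Gnb3b, a beta subunit of cone transducin and thus a direct partner of gnat2, was at 0.38 with boscalid (SE 0.16, limma adjusted p = 0.65). It had 4420.4 ± 603 normalized counts with M510F01, 5036 ± 601 with boscalid and 3929.6 ± 842 in DMSO larvae (SD, n = 4 each). Gnb3a, on the same list, had a smaller estimate with boscalid, 0.20 (SE 0.13, limma adjusted p = 0.68). With M510F01 against DMSO gnb3a was at 0.040 (SE 0.12) and gnb3b at 0.18 (SE 0.16).

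Cone opsins, the light receptors upstream of the members, had 8 genes in the tables, of which 6 were tested. With boscalid 5 were positive and 1 negative (median 0.47), and 0 passed. Opn1sw1, the ultraviolet opsin, was at 0.49 with boscalid (SE 0.19, limma adjusted p = 0.64), opn1lw2, a red opsin, at 0.48 (SE 0.20, adjusted p = 0.65), opn1sw2, the blue opsin, at 0.46 (SE 0.19, adjusted p = 0.65) and opn1mw1, a green opsin, at 0.43 (SE 0.19, adjusted p = 0.65). With M510F01 the same 4 opsins stood between 0.21 and 0.25. Of the remaining opsins, opn1mw2 had a negative estimate (-0.29, adjusted p = 0.76), opn1lw1, the other red opsin, had the largest positive one (1.002, SE 0.45, unadjusted p = 0.047, adjusted p = 0.65) at a mean of 13.7 normalized counts, near the limit for testing, and opn1mw3 and opn1mw4 were not tested, at means of 0.56 and 0.082 over the 12 libraries. Zebrafish opsin paralogues are near-identical copies in part, and how reads shared between copies were counted is not given in the sources used here.

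Rods use a parallel set of proteins, which was read from the rod counterparts of the members and other rod genes. Of 21 rod genes tested, 19 were positive and 2 negative with boscalid (median 0.41), and 0 passed. The 2 negative ones were gnb1a (-0.28, SE 0.26) and cngb1a (-0.18, SE 0.32). Grk1a, the rod opsin kinase, was at 0.68 (SE 0.13, limma adjusted p = 0.36), against 0.37 for grk7a. Gnat1, the rod transducin alpha subunit, was at 0.47 (SE 0.12, adjusted p = 0.47) and gngt1, its gamma subunit, at 0.53 (SE 0.14, adjusted p = 0.47). Pde6a and pde6b, the rod phosphodiesterase subunits, were at 0.48 (SE 0.14, adjusted p = 0.52) and 0.41 (SE 0.14, adjusted p = 0.61). The rod arrestins saga and sagb were at 0.53 (SE 0.16, adjusted p = 0.55) and 0.48 (SE 0.16, adjusted p = 0.60), and the channel gene cnga1a at 0.45 (SE 0.20, adjusted p = 0.65).

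Whether cone and rod genes differed in their response was asked with the log2 ratio of a cone gene to its rod counterpart within each library, in 9 pairs that share some genes. All 9 ratios were lower in boscalid than in DMSO larvae, by 0.035 to 0.33, and 0 passed after adjustment over the 11 ratios computed. With 4 libraries against 4, no exact permutation p can fall below 0.029. Ratios at that floor came out at 0.16 after adjustment over the 11 ratios. The adjusted test therefore could not show a difference confined to a few ratios, and its outcome does not decide the question. Gngt2a over gngt1 was -1.15 ± 0.14 with boscalid and -0.81 ± 0.082 in DMSO larvae (SD, n = 4 each; exact permutation test, two-sided p = 0.029, adjusted 0.16), with ranges of -1.35 to -1.02 and -0.93 to -0.74. Gngt2b over the same rod gene was 1.80 ± 0.16 with boscalid and 1.96 ± 0.16 in DMSO larvae (exact permutation p = 0.20, adjusted 0.275). For gngt2b over gngt1 the groups overlapped. Cnga3a over cnga1a was 2.76 ± 0.097 with boscalid and 3.07 ± 0.17 in DMSO larvae (exact permutation p = 0.029, adjusted 0.16). Cnga1a had a low mean of 51.0 normalized counts, and this ratio had an SD of 0.66 with M510F01. The rod list also holds cnga1b, at a mean of 142 and a log2 fold change of 0.35 with boscalid, and no ratio to it was computed. Grk7a over grk1a was 1.35 ± 0.20 with boscalid and 1.66 ± 0.20 in DMSO larvae (exact permutation p = 0.057, adjusted 0.21). Gnat2 over gnat1 was nearly equal, at 2.12 ± 0.17 with boscalid and 2.15 ± 0.16 in DMSO larvae (exact permutation p = 0.74). With M510F01 against DMSO 7 of the 9 ratios were lower and the smallest adjusted p was 0.63. With M510F01 against boscalid 2 of the 9 were lower, and the smallest adjusted p was 0.73.

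**Figure D4:**
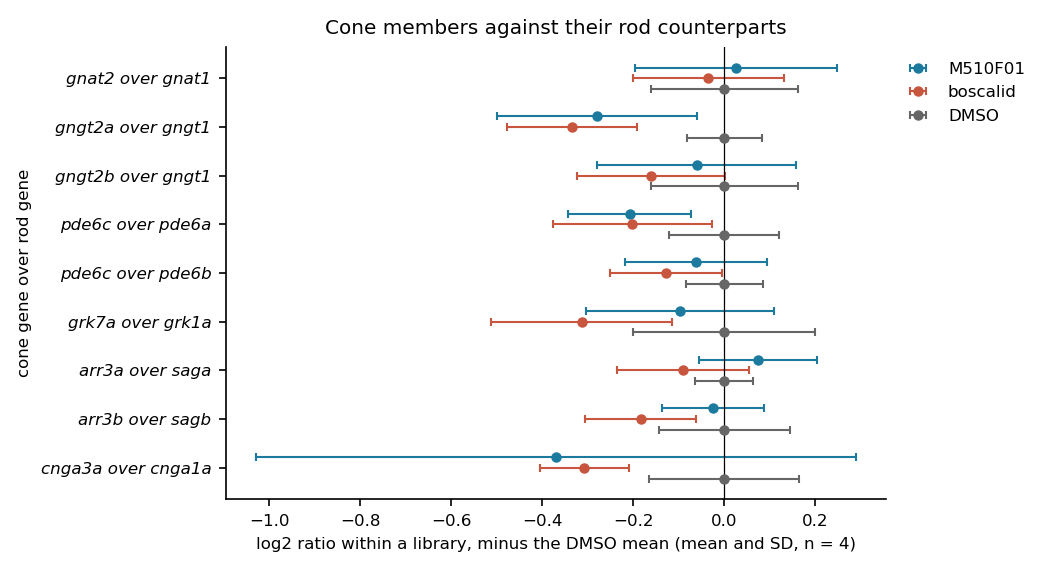
Log2 ratio of each cone gene to its rod counterpart within a library, minus the DMSO mean (x axis), for M510F01, boscalid and DMSO from top to bottom in each row. Points and whiskers are the mean and SD of 4 libraries. The boscalid points lie left of the DMSO points in all 9 rows, furthest for gngt2a over gngt1 at -0.33 and least for gnat2 over gnat1 at -0.035.

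Other cell types of the eye and the pineal organ, which holds photoreceptors of its own, were read from marker lists. In whole larvae the reads of the listed genes need not come from the eye or the pineal organ. The sums, medians and r of these lists therefore do not stand for those cell types alone. The summed level of the rod phototransduction list ran from 15850 to 22491 normalized counts in M510F01 libraries. It ran from 19311 to 22457 in boscalid libraries and from 14198 to 18289 in DMSO libraries, which do not overlap. Of all the lists summed, the rod list alone had boscalid and DMSO ranges apart. Among all single genes tested, 2.2% were higher with boscalid without overlap, but a share of single genes is no background for a sum. The boscalid and DMSO ranges of the sums that follow overlapped. A sum weighs abundant genes most, here rho, gnb1b and sagb, at means of 3644, 3386 and 2498 over the 12 libraries. Their log2 fold changes with boscalid were 0.58, 0.053 and 0.48. The sum of the other cone genes ran from 20792 to 27545 with M510F01, from 25048 to 30954 with boscalid and from 17909 to 27769 with DMSO. The pigment epithelium list ran from 11096 to 15108 with M510F01, from 13120.2 to 16509 with boscalid and from 12047 to 14598 with DMSO. The lens list ran from 37411 to 49258 with M510F01, from 40793 to 54199 with boscalid and from 40769 to 46717 with DMSO, and the Mueller glia list from 31869 to 40685 with M510F01, from 29196 to 36123 with boscalid and from 31269.8 to 40484 with DMSO. The pineal list ran from 2639 to 3258 with M510F01, from 2698 to 3493 with boscalid and from 2562 to 3062 with DMSO. It shares gngt1 with the rod list, and crx and otx5 with the photoreceptor transcription factors. Gfap is on both the Mueller glia list and the list of larval tissues. These lists are therefore not independent of each other. No matched marker of any list was at 0 in every library. The part of these cell types in the cone values was not tested.

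With boscalid against DMSO the median estimate was 0.23 for 14 pigment epithelium genes (12 positive), 0.21 for 16 genes of the photoreceptor synapse (13 positive), 0.20 for 15 horizontal and amacrine genes (13 positive) and 0.16 for 11 lens genes (11 positive). It was 0.14 for 11 ganglion cell genes (10 positive), 0.093 for 22 photoreceptor transcription factors (13 positive), 0.065 for 9 Mueller glia genes (6 positive), 0.064 for 14 pineal genes (10 positive) and 0.020 for 13 bipolar cell genes (8 positive). In each of these lists 0 genes passed the test. The list of photoreceptor transcription factors thus had a smaller median than the members, 0.093 against 0.33. Its estimates were mixed, from -0.52 for crx (SE 0.50) to 0.44 for samd7 (SE 0.18), with nr2e3 at 0.37 (SE 0.16). In whole larvae their reads need not come from photoreceptors. The difference between lists was not tested.

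Each list was also set beside the mean standardized log2 level of the 8 members in the 12 libraries, the cone profile, which shares normalization and depth with every list. Pearson's r with the cone profile was 0.92 for the other cone genes, 0.85 for the cone opsins, 0.84 for the pigment epithelium and 0.80 for the rod genes. It was 0.77 for the photoreceptor synapse, 0.71 for horizontal and amacrine cells, 0.64 for the pineal organ and 0.63 for Mueller glia. The 23 markers of larval tissues, most of them outside the eye, had r = 0.58 (0.47 on deviations from group means), above the 4 lists that follow. Pearson's r was 0.47 for the lens, 0.37 for bipolar cells, 0.28 for ganglion cells and 0.14 for the photoreceptor transcription factors. On deviations from group means the values were 0.90, 0.78, 0.81 and 0.69 for the first 4 lists, and 0.29, 0.29, 0.012 and -0.13 for the last 4 in the same order. They were 0.67, 0.61, 0.66 and 0.63 for the synapse, horizontal and amacrine, pineal and Mueller glia lists. The lists therefore did not follow the cone profile equally.

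**Figure D5:**
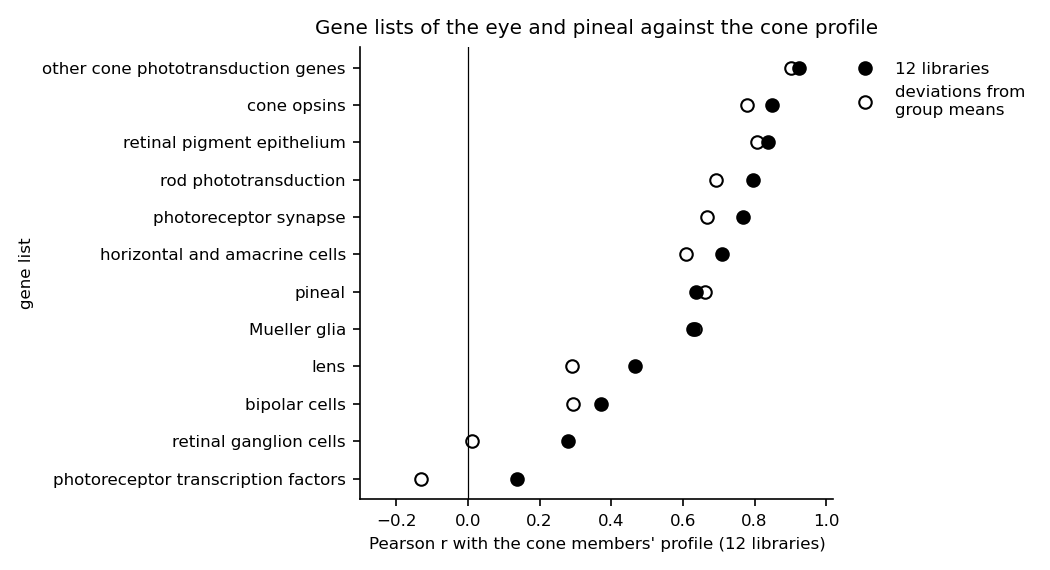
Pearson's r between the mean standardized level of each gene list and the cone profile over 12 libraries (filled), and on deviations from the group means (open). The other cone genes have r = 0.92 and the photoreceptor transcription factors r = 0.14.

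The 10 genes closest to the cone profile were taken from 15263 named genes whose mean level was 50 normalized counts or more. Among them 4 were photoreceptor genes: rcvrna, a recoverin (r = 0.98, Spearman's rho 0.97), gnb5b, a G protein beta subunit that partners the transducin regulator rgs9 (0.98, rho 0.94), prph2a, a peripherin of disc rims (0.97, rho 0.98), and gnb3b (0.97, rho 0.96). Rcvrna, the closest of all, and prph2a are on the rod list, and gnb5b and gnb3b are on the list of other cone genes. A close match to the cone profile was therefore not particular to cone genes. Guk1b, a guanylate kinase that recycles GMP, had r = 0.97 and slmapb, a membrane-anchored protein gene, r = 0.96.

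The other 4 were digestive genes of the exocrine pancreas, which is not part of the eye: sycn.2, a syncollin of secretory granules (r = 0.98, rho 0.99), the trypsin-like protease gene prss59.1 (0.98, rho 0.97), the carboxypeptidase gene cpb1 (0.97, rho 0.98) and the elastase gene ela3l (0.96, rho 0.95). On deviations from group means their r lay between 0.96 and 0.98, and sycn.2 ranked first of all 15263 genes. Without the 2 libraries farthest from the median of the profile, DMSO replicate 4 and boscalid replicate 3, r was 0.96 for sycn.2, 0.97 for prss59.1, 0.95 for cpb1 and 0.96 for ela3l, and 0.97 for rcvrna. Prss59.1 had 4978 ± 1363 normalized counts with M510F01, 6831 ± 1853 with boscalid and 4443 ± 1623 in DMSO larvae (SD, n = 4 each), and its log2 fold change with boscalid was 0.65 (SE 0.25, limma adjusted p = 0.64). These values were chosen as the highest of many and are given with no p.

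In the RefSeq annotation of GRCz12tu, used for names and neighbours only, gnat2 lies beside gnai3, the gene of an inhibitory G protein alpha subunit, and no member neighbours another member. Arr3a overlaps mcf2b, arr3b overlaps inppl1b and pde6c overlaps fra10ac1. Libraries were stranded per the labels, but the strand setting of the counting is not given in the sources used here, so reads of overlapping genes may not be kept apart. The same holds for the paralogue pairs arr3a and arr3b and gngt2a and gngt2b, for which the treatment of reads that map to both copies is not given. The overlapping genes had mean levels of 104, 167 and 59.1 normalized counts, against 6089 for arr3a, 1098 for arr3b and 4111 for pde6c.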

How the data were processed

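Whole-larva RNA libraries were made from total RNA with removal of ribosomal RNA, per the labels' protocols. Tools named by the submitters' processing notes, with no version, are STAR, featureCounts, FastQC, cutadapt and DESeq2. The sources used here give no genome build, annotation or strand setting. The authors deposited 1 table a compound, with a signal for every gene and library (normalized counts: reads over a size factor). The authors also deposited log2 fold changes, a test score, p-values and adjusted p-values per gene. Every deposited value was a whole multiple of its library's value of 1 read, within 0.01 reads (100% of values), which gave back whole reads. For boscalid replicate 4 and M510F01 replicate 2, 1 read was worth nearly 1 normalized count. All their values were whole multiples too. Both tables gave the same DMSO reads.

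The labels list 14 samples and the tables hold 12, so the fifth boscalid and the fifth M510F01 sample were not analysed here. Groups came from the labels. Each difference was fitted on log2(normalized count + 1) by limma (version 3.58.1, R 4.3.3; trend and robust), for genes with a mean of at least 10, and p-values were adjusted over all genes tested (Benjamini-Hochberg, 0.05). Intervals are 95% confidence intervals. For M510F01 against boscalid, recovered reads of 12 libraries were rescaled together (median of ratios) and entered 1 fit. A log2 fold change with a pseudocount understates changes of low genes. EdgeR 4.0.16, DESeq2 1.42.0 and other settings served as alternatives. Fits were tested on simulated data. Python 3.11.15 with pandas 2.3.3 and matplotlib 3.10.9 made tables and figures.

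The members, lists, tests and alternatives were chosen with earlier results of these data known. By rule, the text names the members, of the other cone genes and the opsins the 4 with the smallest p with boscalid, the rod counterparts, and the 10 genes closest to the cone profile at a mean level of 50 or more, placeholder symbols left out. Outside the rule it names the remaining opsins and the other cone and rod genes with a negative estimate with boscalid. It also names some genes that bear on the reading of a list. Promoter and protein sequences were not used here.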

Additional observations from a re-analysis of the deposited data

Results flagged for a closer look

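In 24 sets of 4 libraries (8 genes in 3 groups), 3 held a library far from the other 3, where chance gives about 1 in 20. The 8 genes share the same libraries and moved together, so the sets are not independent. The count therefore cannot be weighed against that rate. Gngt2a was low in boscalid replicate 1, at 373.6 normalized counts with 463.5 as its nearest neighbour. Cnga3a was low in boscalid replicate 2, at 315.6 with 414.5 as its nearest neighbour. Arr3b was high in DMSO replicate 3, at 1299.9 with 901.6 as its nearest neighbour.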

How the results depend on the processing

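No member passed the threshold under any alternative that was run. With the block, with the term, with another filter or without the robust setting, the estimates themselves could not change. The same holds for M510F01 against boscalid in the fits without a DMSO library. The directions counted next include these fits. All 152 alternative values of the members with boscalid against DMSO, and all 176 with M510F01 against boscalid, retained their direction. With M510F01 against DMSO 148 of 152 did. The other 4 were gngt2a at 0.044 without DMSO replicate 3 and 0.053 without M510F01 replicate 2 (range -0.062 to 0.053 over the fits without 1 library), and cnga3a at 0.084 and 0.090 in the same fits (range -0.086 to 0.090). The members' median for boscalid against DMSO lay between 0.22 and 0.47 over the fits without 1 library, the low end without DMSO replicate 4 and the high end without DMSO replicate 3, and from 0.31 to 0.34 under the other alternatives. An unadjusted p under 0.05 with boscalid was held by 6 members without DMSO replicate 3, where 3298 of 23094 genes held one in either direction. Without boscalid replicate 1 it was held by 5 members and by 3819 of 23093 genes. Without DMSO replicate 1 or without boscalid replicate 2 it was held by 1 member (1254 of 23066 and 1704 of 23102 genes). It was held by 0 members in the other 4 fits of this kind, and by 907 to 1399 genes. The members' count therefore rose in fits where the count over all genes rose too.

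Counts of genes called over the whole table moved more. Against the 4 genes called with boscalid, DESeq2 called 92, the fit with the replicate number as a block 90, the term for numbers 1 and 2 against 3 and 4 19, and the joint fit of 12 libraries 9, with 2 to 8 over the fits without 1 library (8 without DMSO replicate 3, and 2 in each of 4 fits, those without replicate 1 or 2 of DMSO and those without replicate 2 or 3 of boscalid). With M510F01 against DMSO the block gave 1 gene against 0. With M510F01 against boscalid DESeq2 called 20, the block 8 and the term for numbers 5, against 3. The causes were not tested.

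The labels do not say what a replicate number shares. Not every same-numbered pair had a correlation of deviations over 0.1, and by that rule the numbers were not taken to pair the libraries. The rule is a choice and no test of pairing. As a hint of shared variation, 8 of 12 pairs were over 0.1 (-0.024 to 0.51), and in 12 of 24 comparisons of a library with another group its best match had its own number. Between same-numbered libraries the members' mean log2 difference of boscalid from DMSO was positive in 4 of 4, from 0.14 to 0.69. In the block the smallest adjusted p of a member with boscalid was 0.093, for arr3a. With the block 6 members had an unadjusted p under 0.05, against 2 without it. The count over all 23085 genes rose too: 4616 had such a p with the block, and 864 higher and 910 lower genes without it. Counting error was below the spread between libraries for each member.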
